A study of Mus musculus with 4 samples.

Results

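The genes described here are 5 guanylate binding proteins (Gbp2, Gbp3, Gbp5, Gbp6 and Gbp7), 3 immunity-related GTPases (Irgm1, Igtp and Iigp1) and the transcription factor gene Irf1. They were chosen by symbol, 9 rows of the 55335 in the deposited table, and each symbol matched 1 row. The table covers 4 RNA-seq libraries from CT26, an established mouse colon carcinoma line, in FPKM (fragments scaled by transcript length and library size). CT26_102 and CT26_CTL carry the genotype label FOSL2-WT and the treatment label PBS. CT26_102_R and CT26_CTL_R carry the labels FOSL2-KO and Chemoradiotherapy, so genotype and treatment change together and their effects cannot be told apart. Neither the labels nor the design text, which mentions KD cells, explains the title parts, how FOSL2 was disrupted, how many clones were used, or at what dose or time cells were taken. The libraries were therefore compared by suffix (R against none) and by title stem (CT26_102 against CT26_CTL), each with 2 libraries on a side. Where 4 values follow a gene without library names, their order is CT26_102, its R partner, CT26_CTL, its R partner. There is 1 library for each combination of stem and suffix, and no label states separate cultures. In the main fit, which holds both divisions, the p-values thus do not measure scatter between replicates. They rest on how far the suffix difference varies between the 2 stems in these 4 libraries alone, moderated over all genes. That variation may be technical.

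Guanylate binding proteins (GBPs) are large GTPases related to dynamins that cells make after exposure to interferon. They assemble on the membranes of intracellular bacteria and of the vacuoles that hold parasites, and they help to start inflammasome signalling. Immunity-related GTPases (IRGs) are smaller and act on the same vacuoles, with Irgm1 and Igtp keeping effectors such as Iigp1 off the cell's own membranes. Interferon gamma acts through the gamma-activated site (GAS), an element found in the promoter of Irf1. IRF1 binds the interferon-stimulated response element (ISRE).

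Promoter sequences are shown first, with letter matches to the GAS and the ISRE. RefSeq windows of GRCm38.p6 running from 250 bases before to 50 bases after each start site were held for 7 of the 9 genes, in 1 or 2 windows a gene. Each was searched for TTCNNNGAA (a GAS, which reads the same on both strands) and for GAAANNGAAA on either strand (an ISRE core). A GAS match was present in 8.30% and an ISRE core in 3.44% of all 32851 windows of 300 bases. All 6 GTPase genes with a window had an ISRE core in at least 1 window, whereas Irf1 had a GAS beginning at -90 from its start and no ISRE core. Gbp3 and Irf1 have 2 windows each, with the match in only 1 of them, and the shares above are per window. The stretches around the matches are given below 5′ to 3′ on the strand of the gene, with matched letters in capitals. On chromosome 3, plus strand, they are Gbp2 (chr3:142620579-142620638), Gbp3 (chr3:142559974-142560039, with 2 overlapping cores), Gbp5 (chr3:142496744-142496803) and Gbp7 (chr3:142530258-142530317). On chromosome 11 they are Igtp (chr11:58199486-58199556, plus strand, with a GAS before the core), Irgm1 (chr11:48871410-48871475, minus strand, with 2 overlapping cores) and Irf1 (chr11:53769899-53769957, plus strand, GAS alone).
Irf1: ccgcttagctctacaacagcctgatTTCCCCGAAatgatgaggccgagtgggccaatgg
Gbp2: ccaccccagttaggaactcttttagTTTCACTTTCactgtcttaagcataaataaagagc
Gbp3: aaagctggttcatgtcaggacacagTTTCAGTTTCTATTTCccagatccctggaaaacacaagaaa
Gbp5: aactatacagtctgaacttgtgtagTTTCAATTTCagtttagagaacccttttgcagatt
Gbp7: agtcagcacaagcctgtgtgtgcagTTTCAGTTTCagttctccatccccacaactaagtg
Igtp: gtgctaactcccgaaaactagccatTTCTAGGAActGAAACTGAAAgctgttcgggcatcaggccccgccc
Irgm1: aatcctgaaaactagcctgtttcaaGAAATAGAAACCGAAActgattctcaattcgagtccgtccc

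GAS matches outside the printed stretches lay in Gbp5 and Gbp7, 2 in each window. The ISRE core of Gbp2 began at -59 from the start site and that of Gbp5 at -165. A match says only that these letters are in the window, and binding was not measured. Of the related genes that are not among the 9, Gbp2b held an ISRE core alone, while Irgm2, Tgtp1 and Tgtp2 each held a GAS followed by an ISRE core.

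**Figure D1:**
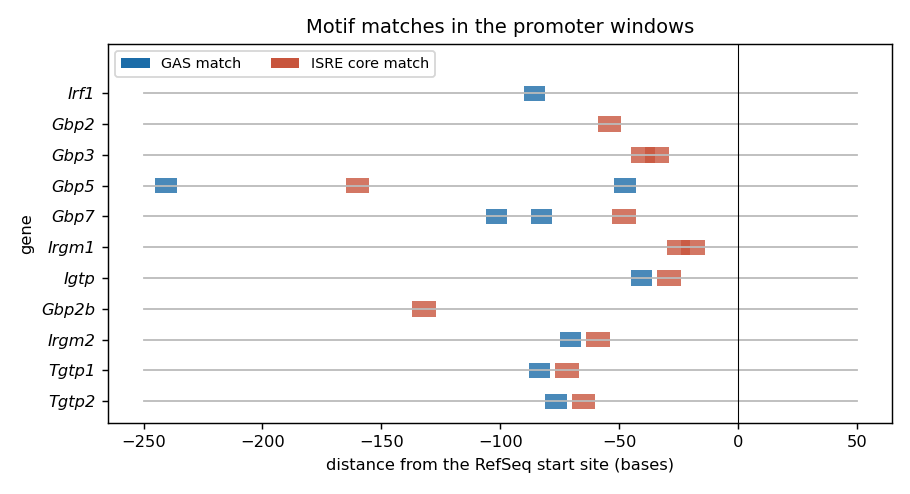
Matches to the GAS (blue) and to the ISRE core (red) in the first RefSeq window of 7 of the 9 genes and of 4 related genes, by distance from the start site in bases; overlapping matches appear darker. Igtp, Irgm2, Tgtp1 and Tgtp2 have a GAS just upstream of the core, and Irf1 has a GAS only.

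The series title concerns FOSL2, so its transcript was examined as a check of the labels. Fosl2 was at 9.35 FPKM in CT26_102 and 16.0 in its R partner, against 12.7 in CT26_CTL and 19.2 in its R partner, higher in both libraries labelled FOSL2-KO. Its RNA level did not follow the genotype label. Treatment changes with that label and the manner of disruption is not stated, so the RNA level alone cannot settle whether the label is right. The libraries are called by their titles here. The depth of the libraries is known only roughly: 1 unit in the low values of a transcript of 2 kb came to between 0.00948 and 0.0116 FPKM, and 33.8% to 35.5% of low values were whole within 0.02 units. The labels call CT26 colon adenocarcinoma and, in the growth protocol, mesenchymal. Of 8 epithelial markers, Krt18 reached between 34.7 and 76.5 FPKM and Krt20 between 24.5 and 36.8, whereas Epcam and Cdx2 were listed at 0 in every library and Cdh1 did not exceed 0.0203. Krt8 was at 3.82 FPKM in CT26_102 and 2.74 in its R partner, against 0.461 in CT26_CTL and 0.652 in its R partner. Krt19 and Vil1 stayed below 1 FPKM.

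Across the 4 libraries the GTPase genes followed the title stem. All 8 were lower in both CT26_102 libraries than in either CT26_CTL library, a separation without overlap that 20.9% of the 11955 tested genes showed in the same direction. With each division tested in a limma fit that held the other as a term, 6 of the 9 genes fell in CT26_102 (Gbp2, Gbp3, Gbp5, Gbp7, Igtp and Iigp1) and 0 rose. Over all tested genes, 9.44% fell and 12.5% rose in CT26_102, 21.9% in all. The median log2 difference of the 9 was -1.36, against 0.05 over all tested genes. Gbp5 and Iigp1 passed the filter on low values (1 FPKM or more in 2 or more libraries) only through the CT26_CTL libraries, where they were high, so their calls were in part set by the filter. In bulk RNA, fewer expressing cells and less RNA per cell cannot be told apart.

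**Figure D2:**
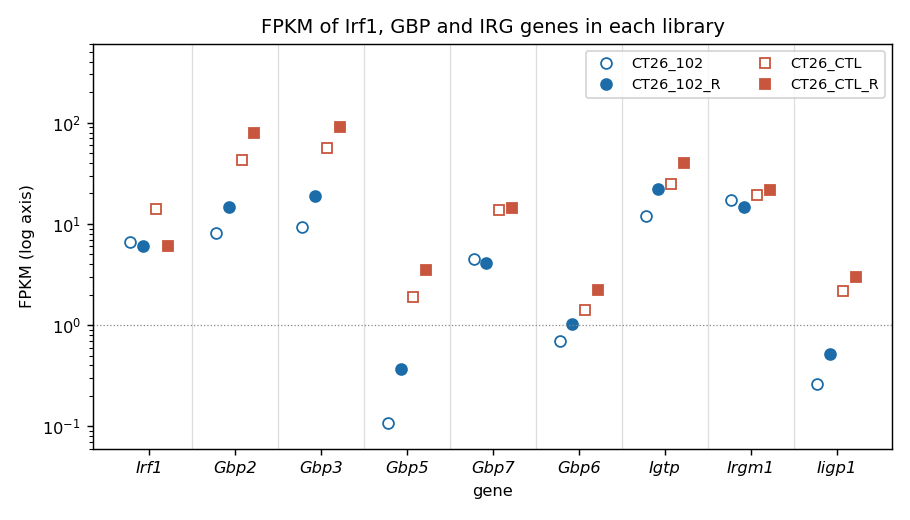
FPKM on a log axis of the 9 genes in each of the 4 libraries, with CT26_102 libraries as circles, CT26_CTL libraries as squares and filled symbols for suffix R; the dotted line is 1 FPKM. The circles of all 8 GTPase genes lie below the squares, with folds from 17.4 (Gbp5 without R) to 1.13 (Irgm1 without R), and Irf1 stands out only in CT26_CTL.

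Gbp2 (ENSMUSG00000028270, GRCm38 chromosome 3, 142620602 to 142638008, plus strand) encodes a GBP that carries a lipid anchor and coats vacuoles. It was at 8.07 FPKM in CT26_102 and 14.8 in its R partner, against 43.2 in CT26_CTL and 79.5 in its R partner. Both CT26_102 libraries were low, and within each stem the library with suffix R was the higher. CT26_CTL exceeded CT26_102 by 5.35 times without R and by 5.37 times with it. The stem difference was -2.32 ± 0.12 on the log2(FPKM + 1) scale (moderated SE, n = 2 libraries per side, 95% interval -2.63 to -2.00, adjusted p = 0.00325). R exceeded its partner by 1.83 and 1.84 times, a log2 difference of 0.83 ± 0.12 (adjusted p = 0.0280).

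Gbp3 (ENSMUSG00000028268, chromosome 3, 142560026 to 142573209, plus strand), a neighbour of Gbp2, was the most abundant of the 9 in both CT26_CTL libraries. Its FPKM was 9.37 in CT26_102 and 18.8 in its R partner, against 56.2 in CT26_CTL and 90.4 in its R partner. The order of the libraries was that of Gbp2. The stem difference was -2.34 ± 0.13 (adjusted p = 0.00338) and the suffix difference 0.81 ± 0.13 (adjusted p = 0.0330). In folds of FPKM, R exceeded its partner by 2.01 times in CT26_102 and by 1.61 times in CT26_CTL.

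Gbp5 (ENSMUSG00000105504, chromosome 3, 142493978 to 142522344, plus strand) encodes a GBP known for promoting assembly of the NLRP3 inflammasome. It was at 0.109 FPKM in CT26_102 and 0.372 in its R partner, against 1.89 in CT26_CTL and 3.54 in its R partner. It was thus barely detected in CT26_102, and the CT26_CTL libraries were 17.4 times higher without R and 9.51 times higher with it. On the log2 scale with a pseudocount of 1, which compresses such low values, the stem difference was -1.55 ± 0.17 (adjusted p = 0.0105), and with a pseudocount of 0.1 it was -3.10. Values with R exceeded their partners by 3.43 and 1.88 times, but the suffix difference of 0.48 did not pass (95% interval 0.04 to 0.92, adjusted p = 0.116).

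Gbp7 (ENSMUSG00000040253, chromosome 3, 142530342 to 142550149, plus strand), which encodes a GBP linked to delivery of oxidase and autophagy components to bacteria, separated the stems but not the suffixes. Its FPKM was 4.50 in CT26_102 and 4.14 in its R partner, against 13.9 in CT26_CTL and 14.4 in its R partner. The R libraries differed from their partners by 0.920 and 1.04 times. The stem difference was -1.51 ± 0.13 (adjusted p = 0.00779), and the suffix difference was -0.03 (95% interval -0.37 to 0.32, adjusted p = 0.906).

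Gbp6 (ENSMUSG00000104713, chromosome 5, 105270702 to 105293698, minus strand) was low throughout, at 0.705 FPKM in CT26_102 and 1.03 in its R partner, against 1.41 in CT26_CTL and 2.21 in its R partner. Neither its stem difference of -0.58 (adjusted p = 0.0553) nor its suffix difference of 0.33 (adjusted p = 0.189) passed, and without the mean-variance trend the stem difference passed at an adjusted p of 0.0457. Of its transcript words of 50 bases, 65.0% also occur in transcripts of the overlapping gene Gm43302, so its value is uncertain. Gm43302 was itself at 1.88 FPKM in CT26_102 and 2.37 in its R partner, against 5.14 in CT26_CTL and 5.97 in its R partner. The stem difference of Gm43302 passed (-1.07, adjusted p = 0.0137), and its suffix difference of 0.20 did not (adjusted p = 0.328). For the other 8 genes between 0% and 12.7% of such words were shared, the highest in Gbp7.

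Igtp (ENSMUSG00000078853, chromosome 11, 58199556 to 58207591, plus strand), also called Irgm3, encodes a regulatory IRG of the endoplasmic reticulum and lipid droplets. It was at 11.97 FPKM in CT26_102 and 21.9 in its R partner, against 24.9 in CT26_CTL and 39.7 in its R partner, so that CT26_102_R came close to CT26_CTL. The stem difference was -0.91 ± 0.13 (adjusted p = 0.0157), and the suffix difference was 0.74 ± 0.13 (adjusted p = 0.0351), with R above its partner by 1.83 and 1.60 times. Exons of Igtp overlap those of Irgm2 over 8.01% of their length on the same strand.

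Irgm1 (ENSMUSG00000046879, chromosome 11, 48861968 to 48871683, minus strand), a regulatory IRG of Golgi and lysosomal membranes that is also linked to autophagy, varied least among the GTPases. Its FPKM was 17.1 in CT26_102 and 14.7 in its R partner, against 19.3 in CT26_CTL and 21.8 in its R partner. The stems did not overlap, yet the stem difference of -0.35 did not pass (95% interval -0.74 to 0.03, adjusted p = 0.149). R was at 0.858 times its partner in CT26_102 and at 1.13 times in CT26_CTL, with a suffix difference of -0.02 (95% interval -0.41 to 0.37, adjusted p = 0.936).

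Iigp1 (ENSMUSG00000054072, chromosome 18, 60376027 to 60392634, plus strand) encodes the effector IRG that coats and disrupts parasite vacuoles. It was at 0.262 FPKM in CT26_102 and 0.520 in its R partner, against 2.16 in CT26_CTL and 2.97 in its R partner. Both CT26_102 libraries were below 1 FPKM and both CT26_CTL libraries above it, as for Gbp5. The stem difference was -1.36 ± 0.15 (adjusted p = 0.0107), or -2.48 with a pseudocount of 0.1, and the suffix difference of 0.30 did not pass (adjusted p = 0.220).

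Between suffixes, 3 of the 9 genes rose in the R libraries (Gbp2, Gbp3 and Igtp) and 0 fell. Over all tested genes, 7.57% rose and 5.32% fell, 12.9% in all. Of the 8 GTPases, 6 were higher with R in both stems, as were 39.1% of all tested genes. Since the stems did not overlap in any of the 8, CT26_CTL without R exceeded CT26_102_R in each. Both R libraries therefore could not lie above both others in any GTPase, whatever the suffix difference. The median suffix difference of the 9 was 0.33, against 0.00 over all tested genes. With 1 library left out, in a fit of 1 term on the other 3, that median was 0.99 without CT26_102_R and -0.31 without CT26_102. It was 0.69 without CT26_CTL and -0.30 without CT26_CTL_R, where Gbp5 and Iigp1 missed the filter and are not in the median. In such a fit the stems are unequal between the suffixes, so the stem difference enters these medians.

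**Figure D3:**
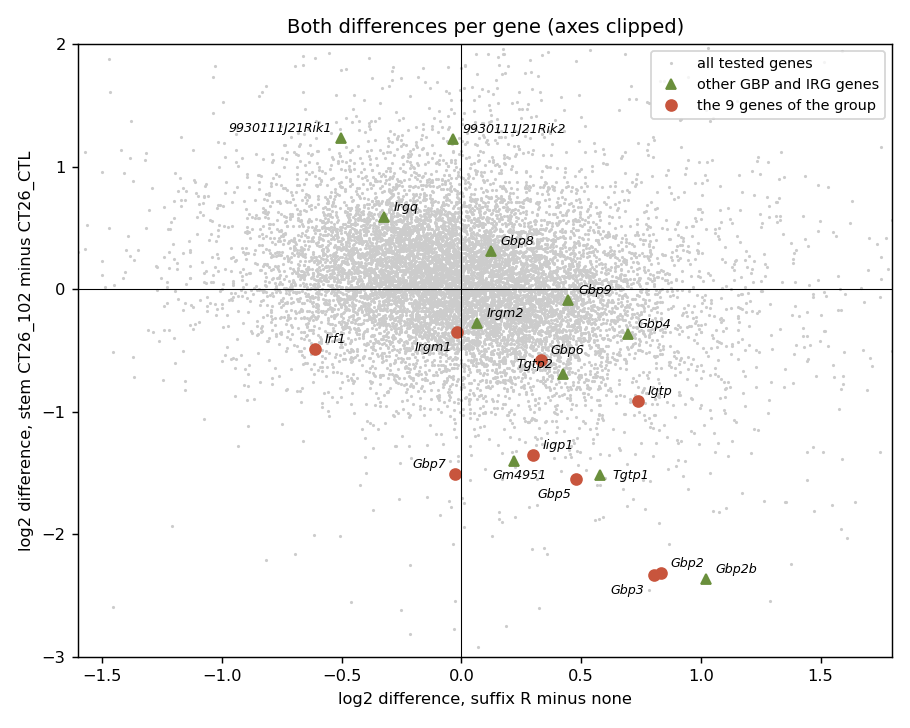
Log2 differences of each tested gene, suffix R minus none on the x axis and stem CT26_102 minus CT26_CTL on the y axis, for all tested genes (grey, axes clipped), the 9 genes (red circles) and other tested GBP and IRG genes (green triangles). Gbp2, Gbp3 and Gbp2b lie together at the lower right, near 0.8 to 1.0 and -2.3 to -2.4, and Irf1 lies at the left, at -0.61 and -0.49.

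Irf1 (ENSMUSG00000018899, chromosome 11, 53770014 to 53778374, plus strand), the inducer of the GTPase genes, did not share their pattern. Its FPKM was 6.69 in CT26_102 and 6.05 in its R partner, against 14.1 in CT26_CTL and 6.05 in its R partner. Only CT26_CTL was high, and the remaining 3 libraries lay between 6.05 and 6.69. R was at 0.429 times its partner in CT26_CTL and at 0.905 times in CT26_102, and both R libraries lay below both others, as in 21.1% of all tested genes. Neither the suffix difference of -0.61 ± 0.25 (95% interval -1.26 to 0.04, adjusted p = 0.155) nor the stem difference of -0.49 ± 0.25 (adjusted p = 0.214) passed. With 1 library for each combination of stem and suffix, the contrast between -0.12 in CT26_102 and -1.10 in CT26_CTL has no residual degrees of freedom and no test. In CT26_CTL, Gbp2, Gbp3 and Igtp were thus at their highest in the library in which Irf1 was low.

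These calls depend on the fit. Without the other division as a term, 0 of the 9 genes passed in either comparison, with adjusted p of 0.602 to 0.816 for the 3 suffix calls and 0.0757 to 0.328 for the 6 stem calls, and without the filter on low values the ranges were 0.153 to 0.156 and 0.0673 to 0.0967. An exact permutation test on both sides of 2 libraries against 2 cannot go below 0.333 and was not run.

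Levels can be compared between genes because FPKM is per length. In both CT26_CTL libraries Gbp3 was highest, followed by Gbp2, Igtp and Irgm1. In CT26_102 the order opened with Irgm1 and Igtp, at 17.1 and 11.97 FPKM, ahead of Gbp3 and Gbp2 at 9.37 and 8.07. Summed over the 11 GBP genes of the table, FPKM was 36.4 in CT26_102 and 62.7 in its R partner, against 156 in CT26_CTL and 267 in its R partner. Gbp2, Gbp2b and Gbp3 supplied 61.6%, 71.7%, 83.0% and 86.8% of it in that order.

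The other GBP genes showed a partial division by chromosome, which was noticed after the values were seen. Mouse GBP genes form 2 clusters, and the 5 on chromosome 3 (Gbp5, Gbp7, Gbp3, Gbp2b and Gbp2, from 142493978 to 142638008) all fell in CT26_102, with a median of -2.32. The call of Gbp5 was in part set by the filter on low values. Of the 6 on chromosome 5, 4 were tested and 0 passed between stems, with a median of -0.23. Over all tested genes, 9.44% fell and 12.5% rose in CT26_102, so 0 of 4 is close to those shares. Gbp6 was close to the threshold (-0.58, adjusted p = 0.0553). Gm43302, which overlaps Gbp6 and is not among the 6, fell in CT26_102 (-1.07, adjusted p = 0.0137). The untested Gbp10 and Gbp11, below 1 FPKM in every library, were also lower in both CT26_102 libraries. Gbp2b, a near relative of Gbp2, was at 5.00, 11.4, 30.4 and 61.7 FPKM in the order given above (stem -2.36, adjusted p = 0.00325, and suffix 1.02, adjusted p = 0.0220). On chromosome 5, Gbp4 was at 3.05, 4.91, 3.72 and 7.47 in that order and rose with R (0.69, adjusted p = 0.0480), while its stem difference of -0.37 did not pass (adjusted p = 0.134). Gbp9 was at 3.28, 4.45, 3.26 and 5.21 and Gbp8 at 2.001, 2.35, 1.48 and 1.63, and neither passed in either comparison. The annotated spans of Gbp4, Gbp8 and Gbp9 overlap on the minus strand, ending at 105139586, 105139540 and 105139539. The transcript words they share were not examined, so the split of values among them is uncertain. Summed FPKM of the chromosome 3 genes was 27.0, 49.5, 145 and 250, and that of the chromosome 5 genes 9.38, 13.2, 10.7 and 17.3. The clusters themselves were not compared by a test.

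Genes beside the chromosome 3 cluster were read out for context, as protein-coding genes within 300 kb of its ends. Gtf2b, which encodes a general transcription factor, was at 9.24, 12.1, 18.1 and 18.8 FPKM in the same order and fell in CT26_102 (-0.75 ± 0.14, adjusted p = 0.0281), by less than any GBP gene of the cluster. Pkn2 (-0.35, adjusted p = 0.111) and Pdlim5 (-0.28, adjusted p = 0.241) did not pass. Kyat3 was at or near 0 in all 4 libraries.

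**Figure D4:**
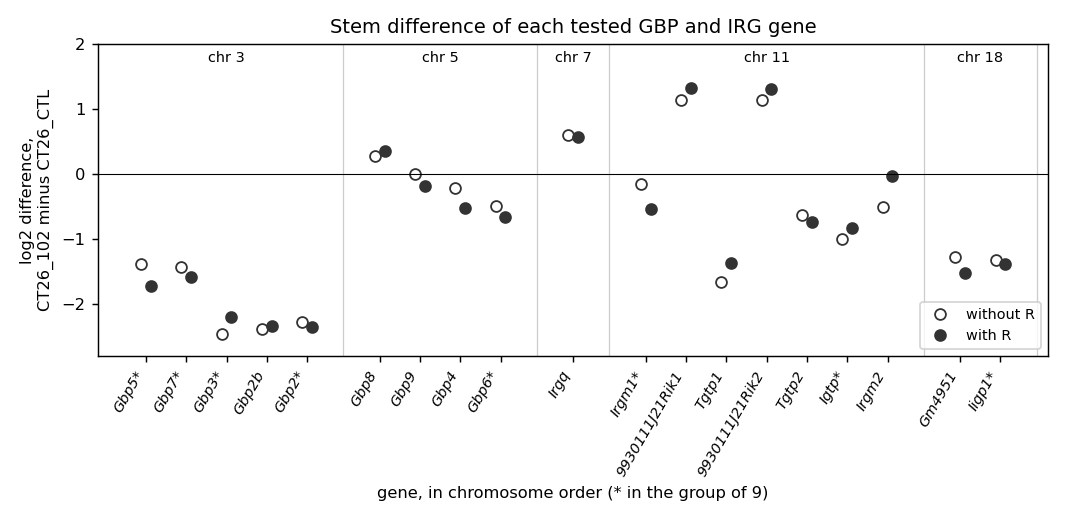
Log2(FPKM + 1) difference between CT26_102 and CT26_CTL for each tested GBP and IRG gene in chromosome order, without R (open) and with R (filled); asterisks mark the 8 GTPase genes described here. The chromosome 3 genes lie between -2.46 and -1.38, those on chromosome 5 between -0.66 and 0.35, and chromosome 11 holds values of both signs.

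Other IRG genes were divided in direction. Of 10 on the list, 7 were tested, of which 3 fell and 3 rose in CT26_102 and 0 passed with R. Tgtp1 and Tgtp2, effector IRGs, fell (-1.52, adjusted p = 0.00784, and -0.69, adjusted p = 0.0261), but 79.4% of the words of Tgtp1 also occur in Tgtp2, so their split is uncertain. Tgtp1 was at 6.33, 11.2, 22.3 and 30.3 FPKM in the order given above, and Tgtp2 at 11.3, 14.8, 18.1 and 25.6. Gm4951, which shares some sequence with Iigp1, fell as well, at 0.818, 0.939, 3.40 and 4.61 (-1.40, adjusted p = 0.0105), but it passed the filter only through the CT26_CTL libraries. In contrast 9930111J21Rik1 was at 3.99, 2.77, 1.28 and 0.504 (1.23, adjusted p = 0.0129) and 9930111J21Rik2 at 8.36, 8.73, 3.27 and 2.92 (1.22, adjusted p = 0.0110). Both lie on chromosome 11 with Igtp and Tgtp1. The remaining genes were Irgq, a divergent member that rose in CT26_102 at 4.97, 3.71, 2.93 and 2.18 (0.58, adjusted p = 0.0427), and Irgm2 at 11.3, 14.2, 16.6 and 14.6, which did not pass (-0.27, adjusted p = 0.267).

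Ifng, the gene of interferon gamma, was listed at 0 in all 4 libraries, while 10 housekeeping genes had no value of 0. Ifnb1, the gene of interferon beta, was at 0.0543, 5.17, 0.458 and 26.4 FPKM in the order given above, so both R libraries exceeded both others (suffix 3.39, adjusted p = 0.0209; stem -1.31, adjusted p = 0.0745). It passed the filter on low values only through the R libraries, where it was high, so its suffix call was in part set by the filter. Of 7 genes of interferon receptors and their kinases, 0 passed in either comparison in the limma fit. Over all tested genes, 12.9% passed with R and 21.9% between stems, so 0 of 7 is near those shares. At an unadjusted p under 0.05 there was 1 of the 7 with R (Tyk2) and 1 between stems (Jak1). Ifngr1, the ligand-binding chain of the interferon gamma receptor, was at 3.39, 5.03, 3.98 and 4.27 (stem 0.01, adjusted p = 0.981).

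Of 6 further transcription factor genes tested (5 IRF genes and Batf2), 1 passed in each comparison. That is near the shares over all tested genes, 12.9% with R and 21.9% between stems. Irf7, the amplifier of type I interferon responses, rose with R (0.57, adjusted p = 0.0470) and fell in CT26_102 (-1.87, adjusted p = 0.00430). It was at 24.5 FPKM in CT26_102 and 34.1 in its R partner, against 85.5 in CT26_CTL and 138 in its R partner, the order of libraries seen for Gbp2. Of 8 tested genes that restrain the pathway, 2 fell in CT26_102, the deconjugase gene Usp18 (-1.14, adjusted p = 0.0280) and the phosphatase gene Ptpn2 (-0.72, adjusted p = 0.0421), and 0 passed with R. Of the other interferon-induced GTPases, Mx2 rose with R (1.61, adjusted p = 0.0155) and fell in CT26_102 (-2.03, adjusted p = 0.00408), and Mx1 fell in CT26_102 (-1.56, adjusted p = 0.0137). Mx1 was at 0.204, 0.559, 1.87 and 4.65 FPKM and passed the filter only through the CT26_CTL libraries.

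**Figure D5:**
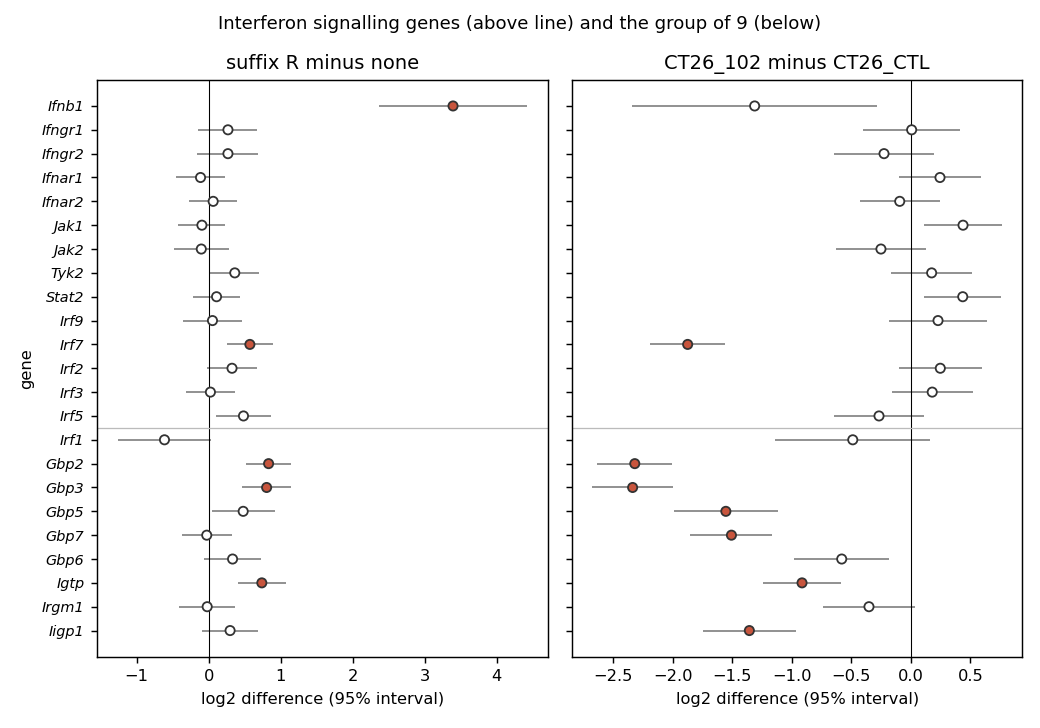
Log2 differences with 95% intervals from the limma fit with both terms for interferon signalling genes and, below the grey line, the 9 genes; suffix R minus none at left and CT26_102 minus CT26_CTL at right, with red points for an adjusted p under 0.05. No receptor or kinase gene is red in either panel, where 12.9% (left) and 21.9% (right) of all tested genes passed. Ifnb1 is high at left (3.39), and Irf7, Gbp2 and Gbp3 lie lowest at right.

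Of 21 listed further targets of interferon gamma and IRF1, 13 were tested, of which 4 rose with R and 1 rose and 3 fell in CT26_102; Gbp4 is among those that rose with R. Cxcl10, a chemokine gene, both rose with R (2.70, adjusted p = 0.0174) and fell in CT26_102 (-2.45, adjusted p = 0.00801). The peptide transporter gene Tap1 (0.84, adjusted p = 0.0309) and the checkpoint ligand gene Cd274 (0.75, adjusted p = 0.0486) rose with R. The protease genes Casp4 (-1.26, adjusted p = 0.0113) and Casp1 (-0.66, adjusted p = 0.0366) fell in CT26_102, whereas the immunoproteasome gene Psmb9 rose there (1.13, adjusted p = 0.0137). Ciita, the class II transactivator that interferon gamma induces, did not exceed 0.0452 FPKM in any library.

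GBPs act with inflammasome components, of which 7 of 12 were tested. Zbp1, a nucleic acid sensor, rose with R (1.07, adjusted p = 0.0216) and fell in CT26_102 (-1.82, adjusted p = 0.00486), and Aim2, the cytosolic DNA sensor, rose with R (1.18, adjusted p = 0.0450), at 6.24, 21.6, 17.0 and 28.5 FPKM in the order given above. Gsdmd, the pore-forming effector, was among the 4 that fell in CT26_102 (-0.50, adjusted p = 0.0459), with Casp1, Casp4 and Zbp1. Il1b was listed at 0 in all 4 libraries, and the adaptor gene Pycard did not exceed 0.0746 FPKM.

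Markers of cells that could bring their own interferon or GTPases were read out beside these results. All 10 T and NK cell markers stayed below 1 FPKM in every library, with sums of 0.152 to 0.174 without R and 0.438 to 0.753 with it, and Cd3e, Ncr1, Klrb1c, Gzmb and Trac were listed at 0. The 8 myeloid markers summed to 37.3 and 64.7 without R and to 154 and 130 with it, carried by Cd68 and Cd14, which rose with R (2.17, adjusted p = 0.0252, and 1.10, adjusted p = 0.0337), and by Lyz2, which was higher with R in CT26_102 only. Ptprc, Adgre1, Itgam and Fcgr1 stayed below 1 FPKM in every library. Csf1r was at 1.10, 1.998, 0.965 and 0.158 FPKM and did not pass with R (adjusted p = 0.808). The sum was higher with R in both stems, but in the CT26_CTL pair 6 of the 8 markers were lower with R, all but Cd68 and Cd14. The part of these markers in the GTPase values was not tested. B cell and endothelial markers stayed below 1 FPKM throughout. The 4 fibroblast markers summed to 109 and 85.6 without R and to 50.5 and 58.5 with it, nearly all of it Col1a2, which fell with R (-0.82, adjusted p = 0.0436).

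By the smallest distance between centred log2(FPKM + 1) profiles over the 4 libraries, the genes nearest to Irf1 were Otub2 (distance 0.03), Pigk (0.11), mt-Tr (0.18), Angptl6 (0.18) and Htra1 (0.20). Otub2, a deubiquitinase gene, was at 4.25 FPKM in CT26_102 and 3.76 in its R partner, against 9.08 in CT26_CTL and 3.71 in its R partner, high in CT26_CTL alone as Irf1 was. Nearest to the mean profile of the 8 GTPase genes were Metrnl (0.04), Cd53 (0.09), Prkar1b (0.10), mt-Tw (0.12) and Casp4 (0.15). Metrnl, the gene of a secreted factor, was at 6.64, 9.29, 18.1 and 25.6 in the same order. These distances over 4 libraries are a description.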

How the data were processed

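The authors deposited 1 table of FPKM per gene for 4 libraries. The labels' protocols name a Qiagen column kit for RNA and a SMARTer kit for mRNA libraries. The sources used here name no aligner, quantifier or strand setting, and the submitters' processing notes name GRCm38 and mm10. Of 55335 rows, 55154 are in GENCODE M21, which gave positions and transcripts. FPKM was analysed as log2(FPKM + 1), which understates folds of low genes, for 11955 genes that reached 1 FPKM in 2 or more libraries. R 4.3.3 with limma 3.58.1 (lmFit with stem and suffix as terms, eBayes with a mean-variance trend, 1 residual degree of freedom and 4.01 prior ones) gave p-values on both sides, adjusted by Benjamini-Hochberg across the 11955 genes, and 0.05 was the threshold. The script was checked on data made with known suffix changes in genes of higher level, for their mean size and direction. That check set no condition on false calls and did not cover the stem difference. Rose and fell mean past that threshold. Counts in any gene list stand beside the shares over all tested genes. With R, 7.57% rose and 5.32% fell, and in CT26_102, 12.5% rose and 9.44% fell.

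All 9 genes are named. From the other lists, every tested GBP and IRG gene is named, and elsewhere up to 6 called genes by size, plus Ifng, Ifnb1, Ifngr1 and Ciita; 1 further gene of that rule is not reported here. The members and lists were chosen with earlier results of these data known. Alternatives were the fit without the other term, a pseudocount of 0.1, no filter, 2 rescalings, no trend, and each library left out.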

Additional observations from a re-analysis of the deposited data

Results flagged for a closer look

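For 2 of the 9 genes the library with suffix R moved in opposite directions in the stems, with 1 pair of libraries in each, and the difference was not tested. The suffix difference of Gbp7 in CT26_102 was 0.15 lower than in CT26_CTL on the log2 scale (a difference of -0.15, from -0.10 and 0.05). That of Irgm1 differed by -0.38, from -0.21 in CT26_102 and 0.17 in CT26_CTL.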

How the results depend on the processing

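Of 108 values of the 9 genes under the tested alternatives, 89 kept their direction and their side of the threshold, 18 lost the call, 1 gained it (Gbp6 between stems without the trend) and 0 reversed; these do not include the fits with a library left out. The 18 were the 9 calls in the fit without the other term and the same 9 without the filter on low values. In the limma fit without the other term, 1 gene passed between suffixes and 34 between stems in place of 1541 and 2623, and 0 of the 9 genes did in either (0 and 5 at an unadjusted p under 0.05). Without the filter 0 genes passed in either comparison (4937 and 5802 at an unadjusted p under 0.05), 0 of the 9 among them (3 and 7). With any 1 library left out, a fit of 1 term on 3 libraries called 1 to 27 genes between suffixes and 12 to 85 between stems, and 0 to 0 and 0 to 2 of the 9. With both terms, leaving out a library leaves 1 pair for each difference and no test, and the suffix differences of Gbp7 (-0.10 to 0.05) and Irgm1 (-0.21 to 0.17), neither of them called, then change sign with the pair. Upper-quartile rescaling gave 937 genes higher and 1011 lower with R, in place of 905 and 636, and median-of-ratios rescaling gave 1190 higher and 1312 lower in CT26_102, in place of 1494 and 1129. All 9 calls held under both rescalings and with a pseudocount of 0.1. The cause of the lost calls was not tested.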

Other observations

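GBPs and IRGs find their targets with help from the ATG8 conjugation system of autophagy. Of 11 genes of that system, 3 rose with R and 0 fell, against 7.57% and 5.32% of all tested genes. The 3 are genes of ATG8 proteins. These were Map1lc3a (0.98, adjusted p = 0.0321), Gabarapl2 (0.97, adjusted p = 0.0252) and Gabarap (0.76, adjusted p = 0.0334) in the limma fit with both terms. Gabarapl2 was at 14.6 FPKM in CT26_102 and 32.3 in its R partner, against 21.6 in CT26_CTL and 39.5 in its R partner. Between stems, Atg7 (-0.76, adjusted p = 0.0249) and Gabarapl1 (-0.68, adjusted p = 0.0408) fell in CT26_102, as did 9.44% of all tested genes.

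Some GBPs need a prenyl anchor to reach membranes. Of 5 genes of prenylation and its later steps, 0 passed with R and Icmt, the methyltransferase of the last step, rose in CT26_102 (0.77, adjusted p = 0.0225). Of 7 genes of ISG15 conjugation and related ubiquitin ligases, Isg15 rose with R (0.86, adjusted p = 0.0198) and fell in CT26_102 (-1.47, adjusted p = 0.00420), and Herc6 fell in CT26_102 (-0.93, adjusted p = 0.0165).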
